A study of Mus musculus with 12 samples.

Results

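The 10 genes Gpnmb, Trem2, Mmp12, Cd9, Spp1, Itgax, Cd68, Ccr2, Lgals3 and Lyz2 were followed through 12 whole-liver RNA sequencing libraries. They were chosen by name, as genes known from lipid-associated macrophages and from monocyte-derived macrophages that enter an inflamed tissue, and were found by their mouse Ensembl identifiers. All 10 were measured, out of 22381 genes with values, and all 10 were among the 12637 genes tested, with values of at least 4.18 (log2) in every library. The deposited values are log2 expression levels without read counts, so sequencing depth is unknown, no counting error is given, and the spread between libraries sets the precision.

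The mice were female C57BL/6, an inbred laboratory strain, kept for 14 weeks on food rich in fat and sugar (the HFHS diet), which models steatohepatitis, a fatty liver with inflammation. There are 4 groups of 3 libraries: untreated HFHS livers (HFHS), those of mice that also received liposomes with curcumin (HFHS_Curcumin) or with calcitriol (HFHS_Calcitriol), and the group CNT. Curcumin is a plant polyphenol and calcitriol the active hormonal form of vitamin D. Both were given intravenously in weeks 12 and 13 of the diet, and flash-frozen livers were profiled 2 weeks after the first injection. The labels give CNT the same 14-week diet as the rest, and the difference between CNT and HFHS in handling is not known here. Livers given empty liposomes were not analysed here, so the effects of a compound and of its liposome injection cannot be told apart. Whether the 3 libraries of a group are from separate animals is not in the labels, so p-values measure only the spread between these libraries. In whole liver, fewer cells of a type and less RNA per cell cannot be told apart.

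Macrophages of a healthy liver are mostly resident Kupffer cells, which scavenge particles and old red cells from the sinusoidal blood. In fatty liver, circulating monocytes enter the tissue through the chemokine receptor CCR2 and mature into macrophages, and some of these take on a lipid-handling program marked by TREM2, GPNMB, CD9 and osteopontin (Spp1). Such cells are known from fatty livers and from obese adipose tissue, where they surround dying lipid-laden cells and take up lipid and debris. None of the 10 genes is exclusive to macrophages: bile duct cells express Spp1, many cell types carry CD9 and galectin-3 (Lgals3), and dendritic cells carry CD11c (Itgax).

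The promoters of 4 of the 10 genes are printed because these genes passed the test of HFHS against CNT given below and carry matches to motifs of factors known for macrophage genes. Gpnmb and Lgals3 also passed it but carry no match, and are not printed. Each is the 250 bases before a transcription start annotated by RefSeq on GRCm38.p6, written 5′ to 3′ on the gene's strand, with motif matches in capitals.
Trem2 (chr17:48346151-48346400, plus strand): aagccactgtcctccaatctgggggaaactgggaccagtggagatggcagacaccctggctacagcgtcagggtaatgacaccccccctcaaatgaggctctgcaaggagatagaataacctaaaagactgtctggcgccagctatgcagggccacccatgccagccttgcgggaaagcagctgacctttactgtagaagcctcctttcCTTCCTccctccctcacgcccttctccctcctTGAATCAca
Cd68 (chr11:69666171-69666420, minus strand): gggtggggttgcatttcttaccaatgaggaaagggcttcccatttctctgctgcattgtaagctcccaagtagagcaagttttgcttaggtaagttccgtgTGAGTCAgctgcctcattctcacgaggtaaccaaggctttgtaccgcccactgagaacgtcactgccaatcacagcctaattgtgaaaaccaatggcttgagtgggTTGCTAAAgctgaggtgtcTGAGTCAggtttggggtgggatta
Itgax (chr7:128129300-128129549, plus strand): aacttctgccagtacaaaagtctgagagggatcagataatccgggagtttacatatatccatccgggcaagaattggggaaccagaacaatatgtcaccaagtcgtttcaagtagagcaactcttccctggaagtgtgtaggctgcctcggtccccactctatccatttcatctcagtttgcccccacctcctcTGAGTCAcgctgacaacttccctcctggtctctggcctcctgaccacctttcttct
Mmp12 (chr9:7344147-7344396, plus strand): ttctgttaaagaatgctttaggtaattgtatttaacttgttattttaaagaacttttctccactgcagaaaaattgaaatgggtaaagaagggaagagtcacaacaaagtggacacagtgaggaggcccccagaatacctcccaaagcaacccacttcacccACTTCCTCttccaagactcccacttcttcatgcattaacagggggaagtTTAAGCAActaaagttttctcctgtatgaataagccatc
The capitals mark TGANTCA (the AP-1 motif), TTGCNNAA (C/EBP), and AGGAAG with its longer form GAGGAAGT (PU.1), on either strand, so that CTTCCT and ACTTCCTC are matches on the opposite strand. Trem2 holds CTTCCT 41 to 36 bases and TGAATCA 9 to 3 bases before its start. Cd68 holds TGAGTCA at 149 to 143 and again at 24 to 18 bases before the start, with TTGCTAAA at 43 to 36. The single match of Itgax is TGAGTCA at 56 to 50 bases, and Mmp12 holds ACTTCCTC at 88 to 81 and TTAAGCAA at 39 to 32.

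All 10 genes had a promoter in the RefSeq table, in 12 windows because Mmp12 and Spp1 have 2 each. TGANTCA occurred in 4 of these 12 windows, against 6.75% of the 32851 promoter windows of the genome of the same length. AGGAAG occurred in 6 of the 12, against 29.5% of all windows, and GAGGAAGT, which contains it, in 2 of the 12 against 2.44%. TTGCNNAA occurred in 3 of the 12, against 9.56%. CACGTG, the E-box bound by the MiT/TFE factors of the lysosome program, and TCACGTG, which contains it, occurred in 0 of the 12 windows, against 6.02% and 3.13% of all. Gpnmb, Ccr2 and Lgals3 held none of these motifs in their windows. A match describes the letters only.

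HFHS replicates 1 and 3 stood apart from the other 10 libraries in these genes. They held the highest values of all 12 libraries for 8 of the 10 genes, an ordering found for 13.9% of tested genes. HFHS replicate 2 was the lowest HFHS library for 10 of 10, against 38.7% of tested genes, and lay inside the range of the 6 libraries from injected mice for 8 of them. The median standard deviation (SD) between the 3 libraries over the 10 genes was 0.740 in HFHS, against 0.172 in CNT, 0.197 with curcumin and 0.213 with calcitriol. Over all tested genes those medians were 0.124, 0.114, 0.0906 and 0.0827. Counts of genes called in a comparison with HFHS are therefore given with all 3 HFHS libraries and with 1 of them left out.

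**Figure D1:**
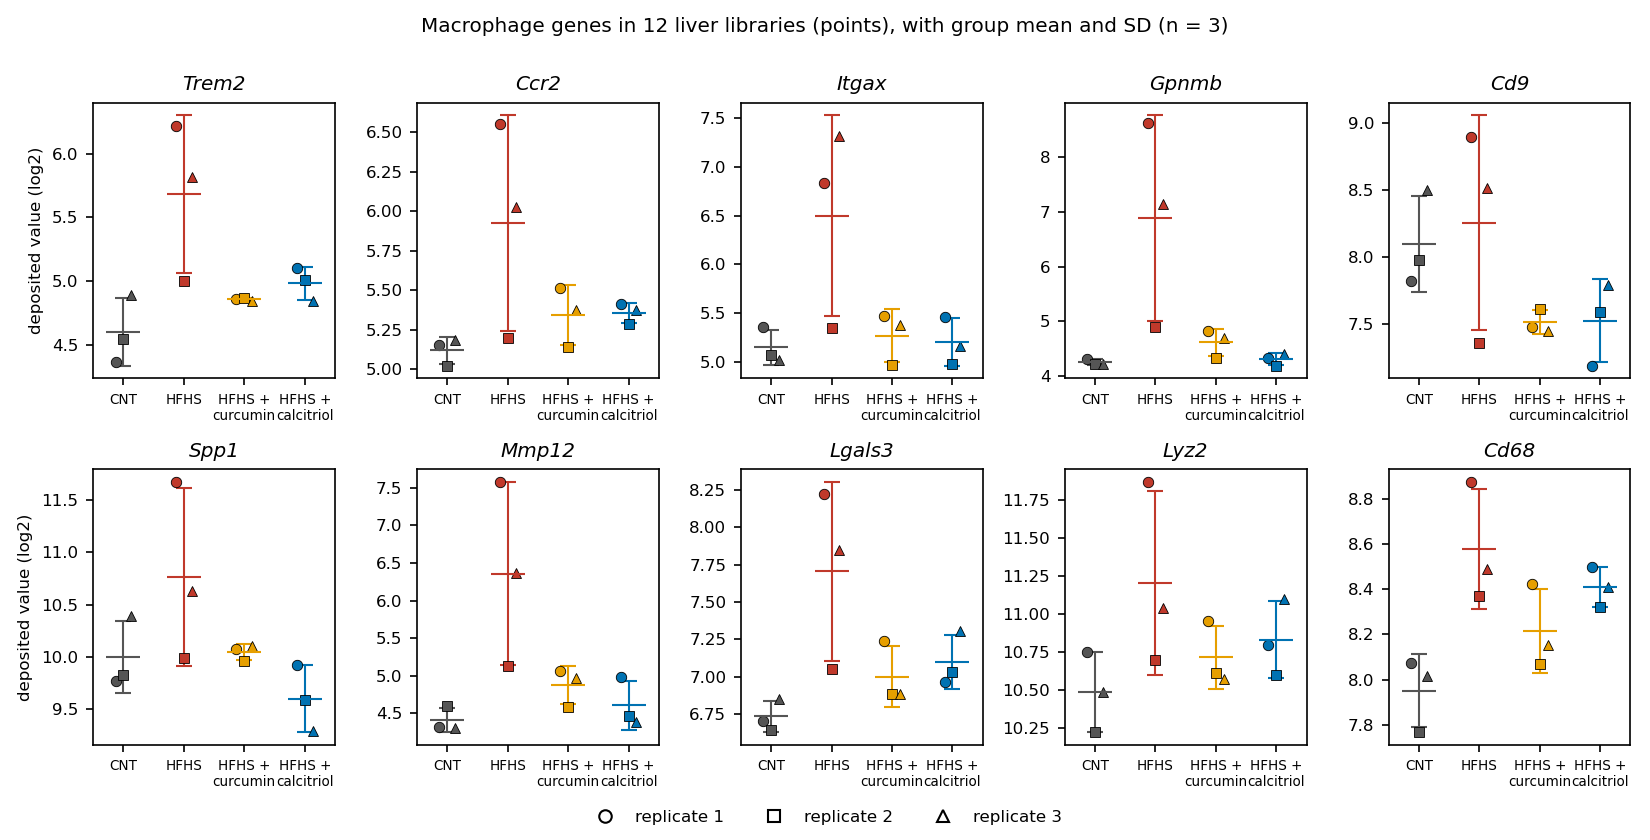
Each panel is 1 of the 10 genes, with the deposited log2 value on the vertical axis, the 4 groups along the horizontal axis, 1 point per library and a bar at the group mean with its SD. In Gpnmb the HFHS points lie at 8.62, 4.89 and 7.15, and the 9 points of the other groups lie between 4.18 and 4.81.

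Compared per length of all annotated exons of a gene joined together, which can exceed the length of its transcript, the 10 genes differed widely in level. Subtracting log2 of the exon length in kilobases put the mean over 12 libraries at 10.41 for Lyz2, 9.38 for Spp1 and 7.96 for Cd68 on this log2 per-kilobase scale. These levels were above those of 96.5%, 93.5% and 85.1% of tested genes. Cd9 followed at 6.82 and Lgals3 at 6.24. Itgax (3.27), Trem2 (2.72), Ccr2 (2.68), Gpnmb (2.31) and Mmp12 (2.21) were low, with only 16.1% to 7.39% of tested genes below them. They also had the longest joined exons, 4803 to 7237 bases against 1257 to 2044 for the others, so their place depends partly on that length. Before the subtraction they were the lowest too, with means of 5.01 to 5.53 against at least 7.14. The rest of the levels are on the deposited log2 scale, within 1 gene.

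In HFHS livers, 6 of the 10 genes rose against CNT past the threshold, an adjusted p of 0.05 by limma with Benjamini-Hochberg adjustment over all 12637 genes: Gpnmb, Mmp12, Itgax, Trem2, Lgals3 and Cd68. Of all tested genes 6.55% rose. Ccr2, Lyz2, Spp1 and Cd9 did not pass. The median log2 change was 0.89 over the 10 genes and -0.01 over all tested genes. In 6 of the 10 every HFHS library lay above every CNT library, against 12.7% of tested genes.

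The receptor genes come first. Gpnmb (ENSMUSG00000029816, GRCm38 chromosome 6, 49036546 to 49070929) encodes a membrane glycoprotein found on endosomes and lysosomes of lipid-laden macrophages. Its value was 8.62, 4.89 and 7.15 in HFHS replicates 1, 2 and 3, and 4.31, 4.22 and 4.21 in CNT. All 3 HFHS libraries were above CNT, with replicate 2 the closest to it. Gpnmb rose by 2.64 ± 0.71 (log2, SE, 3 against 3 libraries), a fold of 6.24, with an adjusted p of 0.0427 by limma. The SE comes from a spread shared by the 4 groups, and HFHS spread more than the others in these genes. Standard errors and p-values of their comparisons with HFHS are thus smaller than the spread of the compared groups alone would give. The HFHS mean was 6.89 ± 1.88 (SD, n = 3) and the CNT mean 4.25 ± 0.05 (SD, n = 3).

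Trem2 (ENSMUSG00000023992, chromosome 17, 48346401 to 48354147) encodes a lipid-sensing receptor that signals through the adaptor TYROBP. Its value was 6.22, 5.003 and 5.82 in HFHS and 4.37, 4.55 and 4.89 in CNT. The groups did not overlap, although HFHS replicate 2 was close to the highest CNT library. Trem2 rose by 1.08 ± 0.24 (log2, SE), a fold of 2.11, with an adjusted p of 0.0228.

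Ccr2 (ENSMUSG00000049103, chromosome 9, 124101950 to 124113557) encodes the receptor for the monocyte attractant CCL2. It measured 6.55, 5.19 and 6.03 in HFHS and 5.15, 5.02 and 5.18 in CNT. The groups did not overlap, and HFHS replicate 2 stood just above CNT replicate 3. The difference of 0.81 ± 0.25 (log2, SE) had an adjusted p of 0.0578 and did not pass.

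Itgax (ENSMUSG00000030789, chromosome 7, 128129547 to 128150657) encodes the integrin subunit CD11c. Its value was 6.84, 5.34 and 7.32 in HFHS and 5.36, 5.07 and 5.01 in CNT. HFHS replicate 2 fell inside the CNT range, so 2 of 3 HFHS libraries were above CNT. Itgax was the gene of the 10 whose highest HFHS library was replicate 3. It rose by 1.35 ± 0.39 (log2, SE), a fold of 2.56, with an adjusted p of 0.048.

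Cd9 (ENSMUSG00000030342, chromosome 6, 125460266 to 125494791) encodes a tetraspanin that organizes integrins in the membrane and lies on chromosome 6 with Gpnmb. It measured 8.89, 7.36 and 8.52 in HFHS and 7.82, 7.98 and 8.50 in CNT. HFHS replicate 2 was below every CNT library and replicates 1 and 3 were above all of them. The difference of 0.16 ± 0.33 (log2, SE) had an adjusted p of 0.769.

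Cd68 (ENSMUSG00000018774, chromosome 11, 69664213 to 69666153) encodes a glycoprotein of macrophage lysosomes. Its value was 8.87, 8.37 and 8.49 in HFHS and 8.07, 7.77 and 8.02 in CNT. The groups did not overlap, and Cd68 had the narrowest HFHS spread of the 10 genes, with an SD of 0.26. It rose by 0.62 ± 0.13 (log2, SE), a fold of 1.54, with the smallest adjusted p of the 10, 0.0188.

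Among the secreted proteins, Mmp12 (ENSMUSG00000049723, chromosome 9, 7344381 to 7369499) encodes macrophage elastase, which cuts elastin and other matrix. Its value was 7.58, 5.14 and 6.36 in HFHS and 4.32, 4.60 and 4.31 in CNT. All 3 HFHS libraries were above CNT. Mmp12 rose by 1.95 ± 0.47 (log2, SE), a fold of 3.86, with an adjusted p of 0.0301.

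Lgals3 (ENSMUSG00000050335, chromosome 14, 47367751 to 47386160) encodes galectin-3, a sugar-binding protein secreted by activated macrophages. It read 8.22, 7.05 and 7.85 in HFHS and 6.71, 6.65 and 6.85 in CNT. The groups did not overlap. Lgals3 rose by 0.97 ± 0.23 (log2, SE), a fold of 1.96, with an adjusted p of 0.0278.

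Spp1 (ENSMUSG00000029304, chromosome 5, 104435118 to 104441050) encodes osteopontin, a secreted ligand of integrins and CD44. It read 11.68, 9.99 and 10.63 in HFHS and 9.77, 9.82 and 10.39 in CNT. HFHS replicate 2 lay inside the CNT range. The difference of 0.77 ± 0.35 (log2, SE) had an adjusted p of 0.158.

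Lyz2 (ENSMUSG00000069516, chromosome 10, 117277331 to 117282321) encodes the lysozyme of macrophages and neutrophils. It read 11.87, 10.69 and 11.04 in HFHS and 10.75, 10.22 and 10.48 in CNT. HFHS replicate 2 again lay inside the CNT range, and the difference of 0.72 ± 0.26 (log2, SE) had an adjusted p of 0.0859. How reads shared with the near-identical neighbour Lyz1 were counted is not given in the sources used here. Lyz1 itself was near the floor of the scale, with group means of 1.51 to 1.66, so the Lyz2 values are uncertain by whatever reads the 2 genes share.

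**Figure D2:**
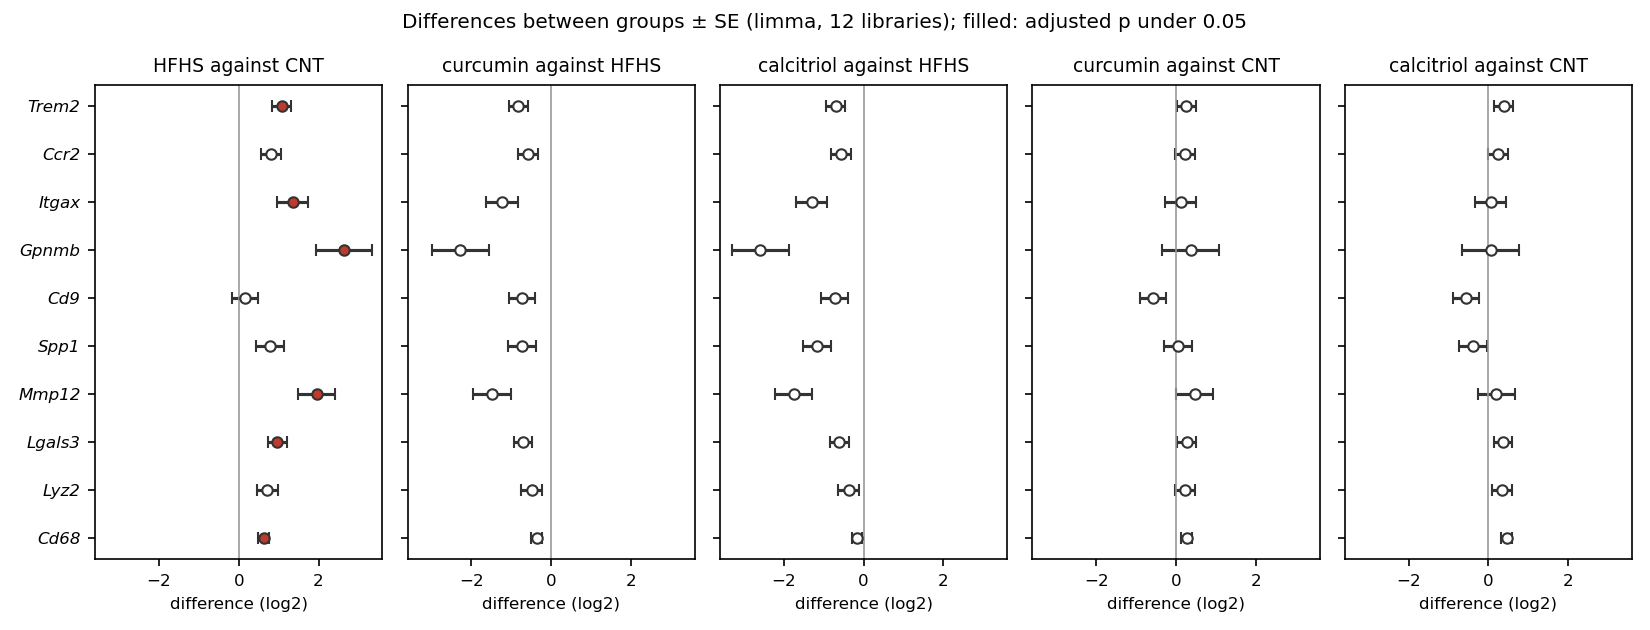
For each of the 10 genes the points show the log2 difference in the 5 comparisons with HFHS or CNT, and the bars its standard error from the limma model, with filled points for an adjusted p under 0.05. Filled points appear in HFHS minus CNT only, for 6 genes, from 0.62 for Cd68 to 2.64 for Gpnmb.

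The calls of HFHS against CNT depended on which libraries entered. Without HFHS replicate 2, 9 of 10 genes rose (Cd9, at 0.61 with an adjusted p of 0.0557, did not), and Gpnmb rose by 3.64 ± 0.34 with an adjusted p of 0.000103. Without HFHS replicate 1 the count was 0, without replicate 3 it was 1 (Cd68), and without CNT replicates 1, 2 or 3 it was 1, 0 and 3. With HFHS replicate 2 as the lone HFHS library the count was 0, the changes of Gpnmb, Mmp12 and Trem2 were 0.65, 0.73 and 0.40, and those of Cd9 and Spp1 were -0.74 and -0.0018. Fitted on the 6 libraries of these 2 groups alone, 0 genes passed, and without the filter on low values 2 did. Many more of all tested genes were also called without HFHS replicate 2. Counts in that setting, here and in the lists below, thus stand against a share above the 6.55% of all libraries.

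The list of ligands, adaptors and partners of the 10 had 17 of 21 genes tested, of which 10 rose and 0 fell past the threshold against CNT, beside the 6.55% of all tested genes that rose. The median log2 change was 0.63, and 3 of the 17 were below 0, Itgb1 (-0.07), Itgb3 (-0.15) and Igsf8 (-0.12), named after their values were seen. Itga4, an integrin subunit that binds osteopontin, rose by 0.83 ± 0.16 (adjusted p = 0.0141). The kinase Syk, which acts downstream of TREM2 and TYROBP, rose by 0.73 ± 0.16 (adjusted p = 0.0214), and Plcg2, a phospholipase of the same route, by 0.55 ± 0.13 (adjusted p = 0.0237). Lgals3bp, which encodes a galectin-3 binding protein, rose by 0.39 ± 0.09 (adjusted p = 0.022). A further 3 partners were chosen after their values were seen: Tyrobp, the TREM2 adaptor, rose by 0.66 ± 0.15 (adjusted p = 0.0249), Ccl2, the CCR2 ligand, by 0.63 ± 0.16 (adjusted p = 0.0327), and Eln, the elastin cut by MMP12, by 1.89 ± 0.54 (adjusted p = 0.0472). The number of partners that rose was 0 without HFHS replicate 1, without replicate 3 or without CNT replicate 2, 6 without CNT replicate 1 or 3, and 12 without HFHS replicate 2.

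Of 20 other lipid-associated macrophage genes tested, 7 rose and 0 fell, against 6.55% and 5.36% of all tested genes, with a median change of 0.43. Cd36, a fatty acid transporter also present in hepatocytes, rose by 1.20 ± 0.12 (adjusted p = 0.000871), and Lpl, the lipoprotein lipase, by 1.75 ± 0.38 (adjusted p = 0.0236). Ctss, a lysosomal protease of macrophages, rose by 0.72 ± 0.15, and Cd300lb, an activating receptor of myeloid cells, by 0.54 ± 0.12 (both adjusted p = 0.0191). Of the 20, 6 were below 0, none past the threshold, among them Fabp5 (-0.70, adjusted p = 0.118) and the lysosomal protease gene Ctsl (-0.28, adjusted p = 0.123), and the lysosomal genes Ctsb, Ctsd and Lipa were at -0.04, 0.09 and 0.06. These 5 genes were chosen after their values were seen. Of 16 tested monocyte and infiltrating macrophage genes, 6 rose and 0 fell, with the same shares of all genes beside them and a median of 0.63. Among them were Lgals1, which encodes galectin-1 (1.0 ± 0.18, adjusted p = 0.0123), and Nr4a1, a nuclear receptor of patrolling monocytes (0.77 ± 0.18, adjusted p = 0.0257). The summed level of the monocyte list went the other way, at 14.96 to 15.29 in HFHS, 15.43 to 15.56 in CNT, 15.14 to 15.25 with curcumin and 15.37 to 15.80 with calcitriol (log2 of the summed linear values). Its gene Fn1, which encodes fibronectin and which hepatocytes also make, made up most of this sum in every library. Fn1 read 14.80 to 15.19 in HFHS and 15.34 to 15.50 in CNT, so the sum says little about the other genes of the list. The change of Fn1 was -0.39 (adjusted p = 0.0839), named after its value was seen. With 1 library left out, the number that rose ranged from 1 (without HFHS replicate 1 or CNT replicate 2) to 11 (without HFHS replicate 2) in the lipid-associated list. In the monocyte list it ranged from 0 (without CNT replicate 2) to 13 (without HFHS replicate 2), and was 1 without HFHS replicate 1 or 3.

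Of 16 resident Kupffer cell genes tested, 1 rose in HFHS against CNT, C1qb (0.54 ± 0.14, adjusted p = 0.033), and 0 fell, with a median of 0.18. This count is near the 6.55% of all tested genes that rose. It was 0 without HFHS replicate 1 or 3, and 3 rose and 1 fell without replicate 2. The summed level of the 16 genes ranged from 13.85 to 14.28 in HFHS, 13.66 to 13.97 in CNT, 14.00 to 14.23 with curcumin and 14.16 to 14.45 with calcitriol (log2 of the summed linear values). C1qc was 0.44 higher (adjusted p = 0.0676) and Clec1b 0.25 higher (adjusted p = 0.0987), and neither passed. Cd163, a scavenger receptor for haemoglobin, was chosen after its values were seen. It read 6.70 in HFHS replicate 1 and 6.49 in replicate 3, but 8.50 in replicate 2 and no less than 8.02 in each of the other 9 libraries. Its low values were thus in the same 2 libraries as the high values of Gpnmb and Trem2, and its change from CNT was -0.89 ± 0.42 (adjusted p = 0.170). The list as a whole did not share this pattern. The mean deviation of the 16 genes from their means over all libraries was 0.18, -0.02 and -0.31 in HFHS replicates 1, 2 and 3. It was thus above the mean in replicate 1 and below it in replicate 3.

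For stellate cells and fibroblasts, the collagen-making cells of the liver, 4 of 10 markers rose against CNT and 0 fell, beside 6.55% of all tested genes that rose, with a median of 0.65. The count was 0 without HFHS replicate 1, without replicate 3 or without CNT replicate 2, 2 without CNT replicate 1 or 3, and 10 without HFHS replicate 2. Among them Col3a1, a fibrillar collagen, rose by 1.89 ± 0.51 (adjusted p = 0.0442) and Lrat, which stores vitamin A in stellate cells, by 0.62 ± 0.13 (adjusted p = 0.0191). The mean deviation of the stellate list from its 12-library mean was 1.06, -0.14 and 1.04 in HFHS replicates 1, 2 and 3, and that of the 10 macrophage genes was 1.51, -0.12 and 0.89. The summed level of the 10 stellate markers ranged from 12.72 to 13.79 in HFHS, 12.44 to 12.71 in CNT, 12.84 to 12.94 with curcumin and 12.72 to 12.83 with calcitriol (log2 of the summed linear values).

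For bile duct cells, which also express Spp1, 0 of 7 tested markers passed with all libraries and 6 of 7 rose without HFHS replicate 2. The sum of the 7 measured markers other than Spp1 ranged from 8.51 to 9.14 in HFHS, 8.43 to 8.70 in CNT, 8.51 to 8.68 with curcumin and 8.30 to 8.68 with calcitriol. Epcam, a surface marker of these cells, read 6.53, 5.18 and 5.78 in HFHS, the same order as Spp1. Of 11 hepatocyte markers 0 rose and 2 fell, Cps1 by 0.84 and Serpina1a by 0.55 on the log2 scale, with a list median of -0.37. Their sum, the highest of all the lists, ranged from 20.70 to 20.995 in HFHS, 20.96 to 21.20 in CNT, 20.92 to 21.24 with curcumin and 20.44 to 20.96 with calcitriol. The number of hepatocyte markers that fell was 4 without HFHS replicate 2 and 0 without replicate 1 or 3. Neutrophil markers, 5 of which were tested, gave 0 calls and a median of 0.53, with sums of 7.37 to 8.08 in HFHS, 7.03 to 7.46 in CNT, 7.26 to 7.58 with curcumin and 7.57 to 8.35 with calcitriol. Dendritic cell markers gave 2 that rose of 7 tested (Ccr7 and Irf8, median 0.22), with sums of 8.36 to 8.80 in HFHS, 8.17 to 8.38 in CNT, 8.23 to 8.36 with curcumin and 8.40 to 8.51 with calcitriol. Lymphocyte markers gave 1 that rose of 10 tested (Cd4, median 0.22), with sums of 7.46 to 7.85 in HFHS, 7.26 to 7.47 in CNT, 7.40 to 7.58 with curcumin and 7.46 to 7.53 with calcitriol.

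Among 5 tested adipocyte markers 0 passed, with a median of 0.04. Their sum, to which Pck1 and Car3 of hepatocytes also contribute, ranged from 15.97 to 16.60 in HFHS, 16.23 to 16.59 in CNT, 16.11 to 16.31 with curcumin and 16.21 to 16.52 with calcitriol. Cfd, which encodes the fat cell protein adipsin, read 9.18 in HFHS replicate 3 and at most 4.32 in the other 11 libraries. Adipoq, which encodes adiponectin and was chosen after its values were seen, read 4.23 there and at most 3.07 elsewhere. Measured means only that a marker was not at 0 in every library, which on this scale does not show that it was detected. With HFHS replicate 2 left out, 4 neutrophil, 5 dendritic cell, 5 lymphocyte and 0 adipocyte markers rose. Without replicate 1 or 3, 0 of each rose, except 1 dendritic cell marker without replicate 3. The part of stellate, bile duct, fat and other cells in the values of the 10 genes was not tested.

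**Figure D3:**
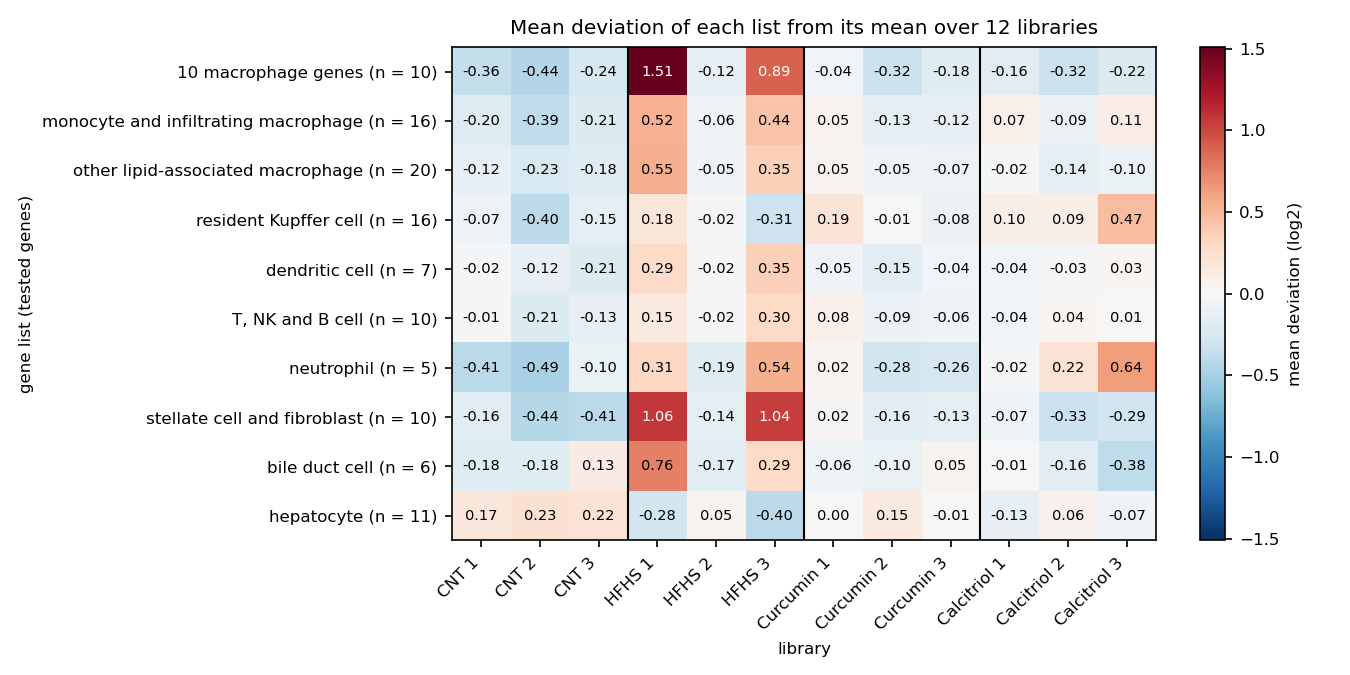
Rows are the 10 macrophage genes and 9 other gene lists, columns the 12 libraries, and the colour is the mean deviation of a list's tested genes from their 12-library means (log2, printed in each cell). The 10 genes reach 1.51 and 0.89 in HFHS replicates 1 and 3 and the stellate list 1.06 and 1.04.

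With curcumin liposomes, all 10 genes had a lower mean than in untreated HFHS, and 0 of 10 passed the threshold by limma, against 0.15% of tested genes that fell. At an unadjusted p under 0.05 there were 8 of the 10, and 3123 of all tested genes. The median change was -0.73 over the 10 genes and -0.0034 over all tested. Every curcumin library lay below every HFHS library for 3 genes, Gpnmb, Trem2 and Mmp12, against 11.6% of tested genes.

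Gpnmb read 4.81, 4.34 and 4.68 in curcumin replicates 1, 2 and 3, all under the lowest HFHS value of 4.89. The difference was -2.28 ± 0.71 (log2, SE, adjusted p = 0.112). Trem2 read 4.86, 4.87 and 4.84, with an SD of 0.012, the tightest of the 10 genes in this group. Its difference of -0.82 ± 0.24 had the smallest adjusted p of the 10, 0.0933. Mmp12 read 5.06, 4.59 and 4.97, just under HFHS replicate 2 at 5.14, a difference of -1.49 ± 0.47 (adjusted p = 0.110).

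For the other 7 genes, at least 1 curcumin library lay above HFHS replicate 2. Itgax read 5.47, 4.96 and 5.37 (difference -1.23 ± 0.39, adjusted p = 0.110). Lgals3 read 7.24, 6.88 and 6.88 (-0.70 ± 0.23, adjusted p = 0.116), and Cd68 8.42, 8.07 and 8.15 (-0.36 ± 0.13, adjusted p = 0.133). In both, 1 curcumin library was above HFHS replicate 2. Ccr2 read 5.51, 5.14 and 5.37 (-0.58 ± 0.25, adjusted p = 0.185), and Cd9 7.48, 7.62 and 7.45 (-0.74 ± 0.33, adjusted p = 0.197). Spp1 read 10.07, 9.96 and 10.10 (-0.72 ± 0.35, adjusted p = 0.229), and Lyz2 10.95, 10.61 and 10.57 (-0.49 ± 0.26, adjusted p = 0.259).

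Replicates of curcumin and HFHS with the same number deviated together. With the number as a block, a pairing picked from these same data, 1 gene passed, Cd68, at the same -0.36 with an SE of 0.08 (adjusted p = 0.0474). Without HFHS replicate 2, 9 of the 10 fell, Gpnmb by 3.28 ± 0.34 (adjusted p = 0.000306), and Lyz2 did not pass (adjusted p = 0.0553). Without HFHS replicate 1, without replicate 3, or without both, 0 passed. Against the lone HFHS replicate 2, the curcumin difference was -0.28 for Gpnmb, -0.14 for Trem2 and -0.26 for Mmp12, and 0.15 for Cd9 and Ccr2. Far more of all tested genes were also called without HFHS replicate 2 than with all libraries, so the count in that setting is not particular to the 10.

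The calcitriol comparison shares the 3 HFHS libraries with the curcumin comparison, so their differences are not independent. All 10 genes had a lower mean with calcitriol than in HFHS, and 0 of 10 passed by limma, against 1.23% of tested genes that fell. At an unadjusted p under 0.05 there were 8 of the 10 and 2693 of all. The median change was -0.71 over the 10 and -0.0020 over all tested genes. Gpnmb, Mmp12 and Spp1 had every calcitriol library below every HFHS library, 3 of 10 against 11.8% of tested genes.

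Gpnmb read 4.33, 4.18 and 4.40 with calcitriol, a difference of -2.59 ± 0.71 (log2, SE, adjusted p = 0.087). Mmp12 read 4.98, 4.46 and 4.38 (-1.75 ± 0.47, adjusted p = 0.0781, the smallest of the 10). Spp1 read 9.92, 9.58 and 9.28, all under the lowest HFHS value of 9.99, a difference of -1.17 ± 0.35 (adjusted p = 0.102). In each of these 3 genes HFHS replicate 2 was the HFHS library closest to the calcitriol group.

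Itgax read 5.46, 4.98 and 5.16 (-1.30 ± 0.39, adjusted p = 0.102), and Trem2 5.10, 5.01 and 4.84 (-0.70 ± 0.24, adjusted p = 0.131). Lgals3 read 6.97, 7.03 and 7.31 (-0.60 ± 0.23, adjusted p = 0.169), and Ccr2 5.41, 5.29 and 5.37 (-0.57 ± 0.25, adjusted p = 0.223). Each of these 4 genes had at least 1 calcitriol library above HFHS replicate 2. Cd9 read 7.19, 7.60 and 7.80 (-0.73 ± 0.33, adjusted p = 0.234), and Lyz2 10.79, 10.59 and 11.10 (-0.37 ± 0.26, adjusted p = 0.444). Cd68 read 8.50, 8.32 and 8.41 and was the gene with the smallest difference of the 10, -0.17 ± 0.13 (adjusted p = 0.506).

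Without HFHS replicate 2, 8 of the 10 fell in the calcitriol comparison, Gpnmb by 3.58 ± 0.34 (adjusted p = 0.000182), and Cd68 and Lyz2 did not pass (adjusted p of 0.198 and 0.121). Without HFHS replicate 1, 3 or both, 0 passed. Against the lone HFHS replicate 2 the difference was -0.59 for Gpnmb, -0.53 for Mmp12, -0.40 for Spp1 and -0.019 for Trem2, and above 0 for Cd9, Cd68, Ccr2, Lgals3 and Lyz2. Calls over all tested genes also rose far above their number with all libraries when HFHS replicate 2 was left out.

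**Figure D4:**
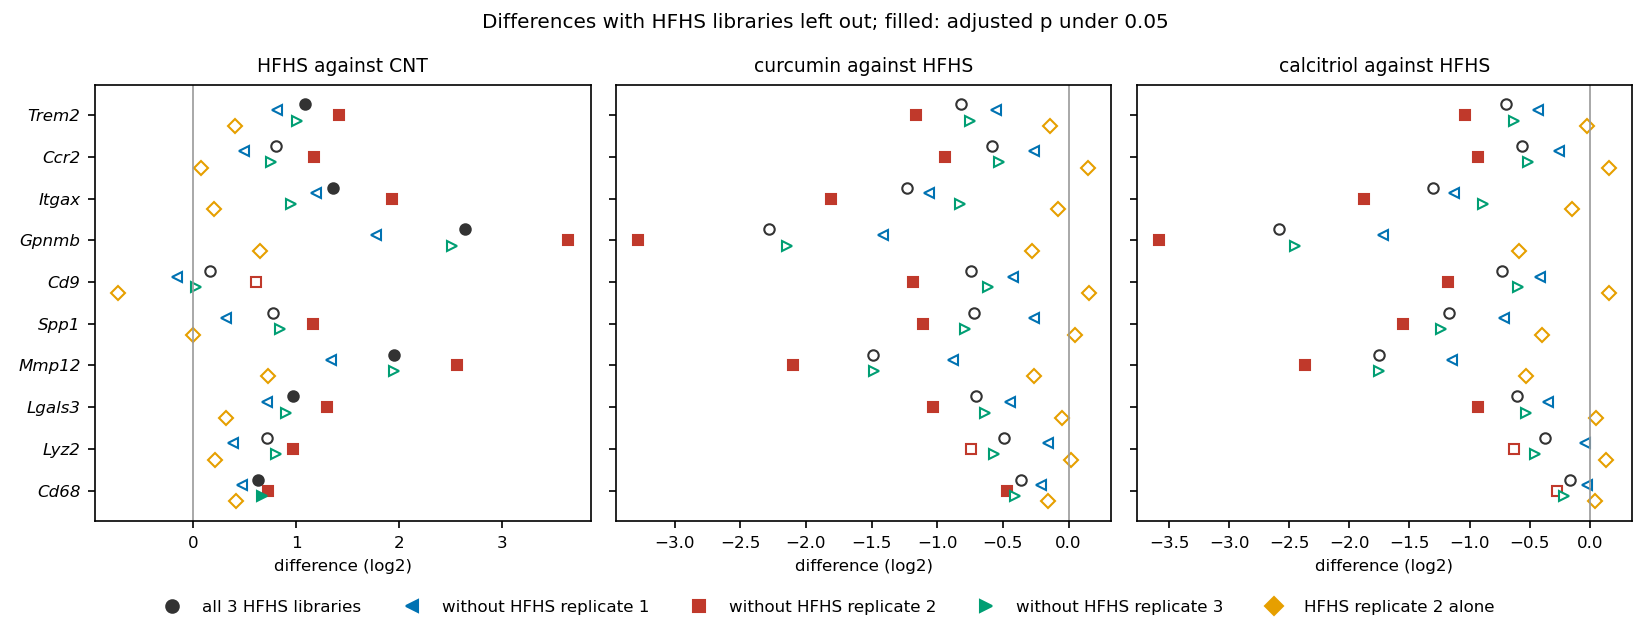
For each of the 10 genes the points show the log2 difference of HFHS minus CNT, curcumin minus HFHS and calcitriol minus HFHS with all libraries, without each HFHS library, and with HFHS replicate 2 alone, filled where the adjusted p is under 0.05. For Gpnmb in HFHS minus CNT the difference is 2.64 with all libraries, 3.64 without HFHS replicate 2 and 0.65 with replicate 2 alone.

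In the lists, 0 genes passed in the curcumin comparison with HFHS in any of the 12 lists other than the 10 genes. With the replicate number as a block, 2 partners, 1 monocyte gene and 1 lymphocyte marker fell. Without HFHS replicate 2, 11 partners, 7 other lipid-associated genes, 9 monocyte genes, 8 stellate, 5 bile duct, 4 dendritic cell, 4 lymphocyte and 2 neutrophil markers fell, while 2 Kupffer cell genes and 4 hepatocyte markers rose. Without HFHS replicate 1 or 3 the counts were 0. With all libraries, the median was -0.39 for the partners, -0.25 for the other lipid-associated genes, -0.37 for the monocyte genes, -0.04 for the Kupffer cell genes and -0.74 for the stellate markers. With calcitriol the corresponding medians were -0.15, -0.26, -0.25, 0.18 and -0.79. Lgals1 was the monocyte gene that fell with calcitriol: it fell by 1.10 ± 0.18 (adjusted p = 0.021), and Des, a filament protein of stellate cells, the stellate marker that did, fell by 0.41 ± 0.09 (adjusted p = 0.0455). Cd163 was the Kupffer cell gene that rose, by 1.92 ± 0.42 (adjusted p = 0.047), and its low values were in HFHS replicates 1 and 3. These 3 calls were lost without HFHS replicate 1 or 3, without calcitriol replicate 2 or 3, and with only these 2 groups fitted, and those of Des and Cd163 also without calcitriol replicate 1. Without HFHS replicate 2, 6 partners, 7 other lipid-associated genes, 9 monocyte genes, 8 stellate, 6 bile duct, 4 dendritic cell and 3 lymphocyte markers fell, and 4 Kupffer cell genes, 1 monocyte gene and 3 hepatocyte markers rose.

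Between the injected groups and CNT, 0 of the 10 genes passed by limma in either comparison. Of all tested genes 3.51% passed for curcumin (1.6% higher, 1.91% lower) and 4.04% for calcitriol (1.77% higher, 2.27% lower). At an unadjusted p under 0.05 there were 0 of the 10 with curcumin (2345 of all) and 1 with calcitriol (2951 of all). The median change over the 10 was 0.24 with curcumin and 0.22 with calcitriol. These 2 comparisons share the CNT libraries, and their standard errors also carry the wide HFHS spread, since the 4 groups share an estimate.

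Lgals3 was the gene of the 10 with all 6 injected libraries above all CNT libraries, an order found for 6.38% of tested genes, and Cd9 the one with all 6 below, found for 7.06%. Lgals3 was 0.27 ± 0.23 higher with curcumin (adjusted p = 0.595) and 0.37 ± 0.23 higher with calcitriol (adjusted p = 0.371). Cd9 was at -0.58 ± 0.33 with curcumin (adjusted p = 0.381) and -0.57 ± 0.33 with calcitriol (adjusted p = 0.325). Neither gene passed in either group.

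Gpnmb was also above CNT in every curcumin library (0.36 ± 0.71, adjusted p = 0.837), so that with Lgals3 the count was 2 of 10, against 12.9% of tested genes. Cd9 was the 1 of 10 wholly below CNT, against 12.7%. With calcitriol, Cd68, Ccr2 and Lgals3 were wholly above CNT, 3 of 10 against 14.9%, and Cd9 wholly below, 1 of 10 against 17.4%. Cd68 was 0.46 ± 0.13 higher with calcitriol than in CNT (adjusted p = 0.0726). Replicates of these 2 groups with the same number deviated together. With the number as a block, a pairing picked from these same data, Cd68 rose by the same 0.46 with an SE of 0.08 (adjusted p = 0.015). It also passed when only these 2 groups were fitted (adjusted p = 0.0383).

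The remaining differences from CNT did not pass either, and lay between -0.40 and 0.46. Mmp12 was 0.46 ± 0.47 higher with curcumin and 0.20 ± 0.47 higher with calcitriol. Spp1 differed by 0.05 ± 0.35 and -0.40 ± 0.35, Itgax by 0.12 ± 0.39 and 0.05 ± 0.39, and Trem2 by 0.26 ± 0.24 and 0.38 ± 0.24. Ccr2 differed by 0.23 ± 0.25 and 0.24 ± 0.25, and Lyz2 by 0.23 ± 0.26 and 0.34 ± 0.26. Cd68 was 0.26 ± 0.13 higher with curcumin (adjusted p = 0.318) and Gpnmb 0.06 ± 0.71 higher with calcitriol (adjusted p = 0.973).

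Other genes of the lists did pass against CNT. Cd36 rose by 1.18 ± 0.12 with curcumin (adjusted p = 0.000748) and by 0.91 ± 0.12 with calcitriol (adjusted p = 0.0046). Fabp5, a fatty acid binding protein of lipid-associated macrophages that other cells also make, fell by 1.19 ± 0.28 with curcumin (adjusted p = 0.0444) and by 1.27 ± 0.28 with calcitriol (adjusted p = 0.0358). These were the 1 gene that rose and the 1 that fell among the 20 lipid-associated genes tested. Of the 16 Kupffer cell genes 0 passed with curcumin, and 3 rose with calcitriol: Vsig4, a complement receptor (0.62 ± 0.12, adjusted p = 0.0203), Clec4f, a lectin of Kupffer cells (0.58 ± 0.13, adjusted p = 0.0342), and Clec1b (0.39 ± 0.10, adjusted p = 0.0443). Of the 17 partners, 1 rose with calcitriol, Lgals3bp (0.35, adjusted p = 0.0446), and 0 with curcumin. Of the 16 monocyte genes 1 rose with calcitriol, Csf1r, the receptor for the macrophage growth factor CSF1 (0.68 ± 0.14, adjusted p = 0.0233), and 0 with curcumin. The share of all tested genes that rose was 1.77% with calcitriol and 1.6% with curcumin. The calls of Cd36 held with any 1 library left out, while those of Fabp5, Lgals3bp, Csf1r and the 3 Kupffer cell genes in calcitriol against CNT were lost without CNT replicate 2 (adjusted p of 0.0802 to 0.137), without calcitriol replicate 2 and without calcitriol replicate 3. The calls of Fabp5 in both comparisons were lost with any 1 library left out. With the replicate number as a block, 4 Kupffer cell genes, 3 partners and 2 monocyte genes rose with calcitriol.

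Curcumin and calcitriol were also set side by side, and 0 of 10 genes passed by limma, where 0% of tested genes passed. At an unadjusted p under 0.05 there were 0 of the 10, and 1873 of all tested genes. Spp1 had every curcumin library above every calcitriol library (0.45 ± 0.35, log2, SE, adjusted p = 0.570), 1 of 10 genes against 14.9% of tested genes. Cd68 differed by -0.19 ± 0.13 (adjusted p = 0.508), Gpnmb by 0.31 ± 0.71 (adjusted p = 0.874) and Mmp12 by 0.27 ± 0.47 (adjusted p = 0.822). The other 6 genes lay between -0.12 and 0.07. The standard errors of 0.13 to 0.71 come from a spread shared by the 4 groups, HFHS included. For Gpnmb the SD was 0.25 with curcumin and 0.11 with calcitriol, against 1.88 in HFHS. Differences of the order of these standard errors between the 2 formulations were not detectable in this fit.

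HFHS replicate 2 was the lowest HFHS library in all 10 genes, but the genes nearest to each of the 10 differed. Likeness was measured as the mean absolute difference between 2 genes' log2 values after each was centred on its mean over the 12 libraries, as a description with no test, and the values depend strongly on the 2 high HFHS libraries. The values were not scaled, so the measure counts the size of the deviations as well as their order. The genes most like Gpnmb were Col1a1 (0.290), Col3a1 (0.301) and Eln (0.309), and those most like Mmp12 were Col3a1 (0.196), Emp1 (0.212) and Col1a2 (0.219). By this measure, collagen genes were nearer to Gpnmb than was Mmp12, the nearest of the 10, at 0.338. Itgax was closest to Gsn (0.125), Crispld2 (0.133) and the collagen gene Col6a1 (0.142).

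The nearest to Cd68 were Ncf1 (0.0594), a subunit of the phagocyte oxidase, Tyrobp (0.0597) and Ano6 (0.0698). The nearest to Lyz2 were Rac2 (0.0946), Tyrobp (0.0974) and Ly86 (0.110). Lgals3 and Ccr2 were 0.103 apart, and the genes nearest to Lgals3 were Cd72 (0.0915), Ccr2 and Pkm (0.109). Ccr2 was closest to Fblim1 (0.0729), Nupr1 (0.0847) and Sh3pxd2b (0.0912).

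Spp1 was closest to Tspan8 (0.113), Scara3 (0.133) and Cd24a (0.136). Cd24a is a known surface marker of bile duct cells. Among the genes closest to Trem2 were Pygb (0.134) and Epb41l1 (0.140). Cd9 was closest to Slc5a1 (0.196), Cd207 (0.198) and Sort1 (0.210), all of which had HFHS replicate 2 below the mean of CNT.

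The size of the step between HFHS libraries also differed among the 10. HFHS replicate 1 exceeded replicate 2 by 3.73 for Gpnmb, 2.45 for Mmp12, 1.69 for Spp1, 1.53 for Cd9 and 1.49 for Itgax (log2), and by 0.51 for Cd68. HFHS replicate 3 exceeded replicate 2 by 2.26 for Gpnmb and 1.98 for Itgax, but by 0.34 for Lyz2 and 0.12 for Cd68. The pan-macrophage genes Cd68 and Lyz2 thus had smaller steps from replicate 2 to replicate 3 than the other 8 genes, whose steps were at least 0.63. This split did not hold for replicate 1. There the step of Lyz2 was 1.17, beside 1.17 for Lgals3, 1.22 for Trem2 and 1.36 for Ccr2.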

How the data were processed

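Whole livers of 12 mouse libraries in 4 groups of 3 were compared, with groups taken from the sample titles. Each library's file, deposited by the authors, holds log2 values for 45792 gene identifiers, and the 23411 that stood at exactly 0 in every library were dropped. The submitters' processing notes name STAR 2.4.0d, DESeq2 1.8.1 and the build GRCm38, without their roles. The transformation is not given in the sources used here. Low genes sit near a floor of their own, the pattern of a regularized log, so that changes of low genes are probably understated. No 2 libraries held identical values (0 pairs).

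Symbols and coordinates came from GENCODE M21 on GRCm38, and promoters from RefSeq on GRCm38.p6. Genes with a value of at least log2 of 10 (3.32) in at least 3 libraries were tested, 12637 of 22381. In R 4.3.3, limma 3.58.1 fitted all 12 libraries with a mean for each of the 4 groups. Moderation used the trend and robust options of empirical Bayes, tests were two-sided, and p-values were adjusted by Benjamini-Hochberg over every gene tested, with a threshold of 0.05. The groups share 1 estimate of the spread although HFHS varied more. For the 10 genes this narrows the standard errors of comparisons with HFHS and widens those of the others. The fit was also run on simulated data in which each gene had 1 spread for all 4 groups. That run does not check the fit under the wider HFHS spread.

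The 10 genes and the 12 other gene lists were chosen with earlier results of these data known. Dcstamp was at 0 in all libraries, and Lilrb4a and Tf were not matched by symbol. The text names the 10 genes, up to 4 genes with the smallest p per list and comparison, the 3 genes most like each of the 10, and Lyz1. Some genes that this rule would name are not reported here. Alternatives were no filter, quantile normalization, limma without trend and robust estimation, only the 2 groups compared, the replicate number as a block, each library left out, and HFHS replicates 1 and 3 left out together. For the lists, those with libraries left out, only the 2 groups or the block were added after seeing the data.

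Same-numbered libraries deviated together (r over tested genes above 0.1 in every pair) for curcumin with HFHS (0.160, 0.321, 0.162) and calcitriol with CNT (0.205, 0.253, 0.372). These 2 comparisons were taken as paired from the data, since the labels do not say what a number marks. The other 4 comparisons were not, and curcumin with CNT gave -0.083, -0.023 and -0.383. The block was an effect of the replicate number fitted over all 12 libraries, not a paired test within 2 groups. Calls made with the block thus rest on a pairing picked from these same data.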

Additional observations from a re-analysis of the deposited data

How the results depend on the processing

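Of the log2 changes of the 10 genes in the 6 comparisons under each alternative, 592 kept their direction and their side of the threshold, 43 lost the call, 25 gained one and 30 changed direction. The number of the 10 genes called in HFHS against CNT was 6, and became 2 without the filter, 0 with only the 2 groups fitted, 0 without HFHS replicates 1 and 3, and 0 to 9 with 1 library left out. For curcumin against HFHS it was 0, and 0 to 9 with 1 library left out, and for calcitriol against HFHS 0, and 0 to 8. For calcitriol against CNT it was 0, and 1 with only the 2 groups fitted. The cause was not tested. No interval from counts is possible, since depth is unknown, and 3 libraries a group limit every comparison.

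With the replicate number as a block, 1 of the 10 genes passed for curcumin against HFHS and 1 for calcitriol against CNT, the comparisons taken as paired. In HFHS against CNT, which was not taken as paired, 8 passed (1862 of all genes). In the other 3 comparisons the block changed no call of the 10 genes. For curcumin against HFHS the block raised the genes called from 38 to 242.

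Without HFHS replicates 1 and 3 the direction changed for Cd9 (-0.74) and Spp1 (-0.0018) in HFHS against CNT, for Cd9 (0.15), Spp1 (0.053), Ccr2 (0.15) and Lyz2 (0.017) in curcumin against HFHS, and for Cd9 (0.17), Cd68 (0.041), Ccr2 (0.16), Lgals3 (0.052) and Lyz2 (0.13) in calcitriol against HFHS. Quantile normalization changed it for Gpnmb (-0.011) and Itgax (-0.025) in calcitriol against CNT, and Cd9 (0.00027) and Ccr2 (0.012) in curcumin against calcitriol. With 1 library left out, Cd9 ranged from -0.16 to 0.61 in HFHS against CNT, Spp1 from -0.062 to 0.25 in curcumin against CNT, and Itgax from -0.076 to 0.17 in calcitriol against CNT. In curcumin against calcitriol the ranges were -0.18 to 0.12 for Cd9, -0.045 to 0.22 for Itgax, -0.099 to 0.088 for Ccr2, -0.22 to 0.0034 for Lgals3 and -0.24 to 0.019 for Lyz2.

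Over all genes, the 1505 called in HFHS against CNT became 13 with only the 2 groups fitted, 68 without HFHS replicates 1 and 3, and 135 to 3717 with 1 library left out. The 38 of curcumin against HFHS became 74 without the filter, 168 after quantile normalization, 0 with only the 2 groups, 0 without HFHS replicates 1 and 3, and 0 to 3207 with 1 library left out. The 279 of calcitriol against HFHS became 430 after quantile normalization, 0, 4 and 4 to 2194. The 443 of curcumin against CNT ranged from 94 to 949 with 1 library left out. The 511 of calcitriol against CNT became 328 without the filter and 73 to 609, and the 0 of curcumin against calcitriol 214 with only the 2 groups fitted.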

Other observations

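Among 12 transcription factors known for macrophage and lysosome genes, 2 rose and 2 fell in HFHS against CNT, beside 6.55% and 5.36% of all tested genes, with a median log2 change of 0.06. Pparg, a nuclear receptor of lipid metabolism, rose by 0.77 ± 0.10 (log2, SE, adjusted p = 0.00282 by limma), and Spi1, which encodes the myeloid factor PU.1, by 0.53 ± 0.14 (adjusted p = 0.0345). Tfeb, a regulator of lysosome genes, fell by 0.35 ± 0.09 (adjusted p = 0.0262), and Cebpa, a factor of both hepatocytes and myeloid cells, by 0.45 ± 0.12 (adjusted p = 0.0361). Without HFHS replicate 1 or without replicate 3, 1 rose and 0 fell, and without replicate 2, 4 rose and 2 fell. With HFHS replicate 2 as the lone HFHS library, 0 of the 12 passed.

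With calcitriol, Pparg fell from its HFHS level by 0.52 ± 0.10 (adjusted p = 0.0297), a call lost without HFHS replicate 1 or 3 (adjusted p of 0.103 and 0.0791) or without calcitriol replicate 2 or 3 (0.114 and 0.126). Spi1 rose by 0.56 ± 0.14 against CNT (adjusted p = 0.0443), a call that was lost with any 1 library of these 2 groups left out except CNT replicate 3 (adjusted p of 0.0661 to 0.164). Spi1 thus passed against CNT with calcitriol, and its difference from HFHS was 0.04 ± 0.14 (adjusted p = 0.905). With curcumin, Pparg rose from CNT by 0.53 ± 0.10 (adjusted p = 0.0151), and 0 of the 12 passed against HFHS. That rise did not pass without CNT replicate 1 (adjusted p = 0.0528) or without any 1 of the curcumin libraries (0.0505 to 0.064). Against HFHS without its replicate 2, 2 of the 12 rose and 3 fell with curcumin, and 2 rose and 2 fell with calcitriol.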
